A study of Mus musculus with 8 samples.

Results

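Smooth muscle shortens when the regulatory light chain of myosin is phosphorylated. Myosin light chain kinase adds the phosphate once calcium-bound calmodulin activates it, and myosin light chain phosphatase takes it off. The phosphatase joins a catalytic subunit of protein phosphatase 1 to a targeting subunit that holds it on myosin. The GTPase RhoA acts through the kinases ROCK1 and ROCK2, which phosphorylate the targeting subunit and the inhibitor protein CPI-17 and so restrain the phosphatase, while cGMP-dependent protein kinase relaxes the cell and favours dephosphorylation. Inherited variants of the genes for the kinase and for cGMP-dependent protein kinase are known causes of thoracic aortic disease in people.

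The set held 10 genes of this switch, namely the kinase Mylk, the catalytic subunit Ppp1cb, the targeting subunits Ppp1r12a, Ppp1r12b and Ppp1r12c, the inhibitor Ppp1r14a, the GTPase Rhoa, the ROCK kinases Rock1 and Rock2, and the cGMP-dependent kinase Prkg1. They were chosen with earlier results of these data known, so counts over them are descriptions only. Looked up by symbol, each matched 1 of the 22063 genes in the table. All 10 were among the 13431 genes tested. Aortas came from male C57BL/6J mice that were 3 weeks old at the start, and each of the 8 libraries is labelled as a separate sample. The 4 colchicine libraries came from mice gavaged with colchicine, a drug that stops tubulin from assembling into microtubules, at 200 µg per kg per day. The 4 vehicle libraries came from mice gavaged with saline. Both groups also drank β-aminopropionitrile (BAPN), an inhibitor of lysyl oxidase that weakens elastin and collagen crosslinks and brings about aortic dissection, given for 3 weeks at a daily 1 g per kg. Every library thus came from a BAPN-treated animal, and no healthy aorta is part of the comparison. The labels do not say which stretch of the aorta was taken or whether animals were pooled, so p-values measure the spread between these samples.

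Library totals, in units of 1000000 estimated counts, were 16.8 to 18.3 with colchicine and 15.4 to 18.5 with vehicle. Haemoglobin genes took 14.9% of the counts in vehicle 1 and 6.21% in vehicle 4, against 0.0419% to 0.318% in the other 6 libraries, so results are also given without vehicle 1 and 4. The labelled tissue showed its defining smooth muscle markers. The 8 markers (Acta2, Myh11, Tagln, Cnn1, Lmod1, Smtn, Synpo2 and Des) summed to 23626 to 32171 CPM in colchicine and 6339 to 21821 CPM in vehicle libraries, where CPM is counts per 1000000 after edgeR's TMM scaling of library totals. Among them 3 of 8 rose (Myh11, Lmod1 and Synpo2), beside 17.4% of all tested genes. In whole tissue, fewer cells of a type and less RNA per cell cannot be told apart.

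Promoter stretches are shown for the pair of members whose levels ran closest together over the 8 libraries, Mylk and Ppp1r12b. Each is the 150 bases from position -200 to -51 before a RefSeq start site on GRCm38.p6, written 5′ to 3′ on the gene's own strand. Capitals mark CATTCC or its reverse complement GGAATG, the core of the MCAT element known to be bound by TEAD factors in muscle promoters. The Mylk stretch lies at chr16:34784750-34784899 on the plus strand, and the Ppp1r12b stretch at chr1:134803893-134804042 on the minus strand. Both start sites lie inside the annotated gene. Neither overlapped an exon in GENCODE M21.
Mylk: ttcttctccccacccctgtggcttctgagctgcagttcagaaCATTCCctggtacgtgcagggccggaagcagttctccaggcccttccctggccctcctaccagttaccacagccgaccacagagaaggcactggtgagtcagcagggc
Ppp1r12b: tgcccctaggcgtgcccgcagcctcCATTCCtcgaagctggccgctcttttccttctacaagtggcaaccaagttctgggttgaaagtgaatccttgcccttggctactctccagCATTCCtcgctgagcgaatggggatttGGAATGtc

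The Mylk stretch held 1 match, starting at -158, and the Ppp1r12b stretch held 3, starting at -175, -85 and -58. The other Ppp1r12b window, at the outer start of the gene, held no match and is not shown. Stretches were shown only where they held a match, so a match in each shown stretch was set by that choice. Over windows from 250 bases before to 50 after the start, read on both strands, the motif was in 3 of the 12 windows of 9 members, and in 12.3% of the 13535 windows of tested genes. The CArG box, the element bound by serum response factor, was in 0 of the 12 member windows and in 1.31% of the windows of tested genes. These are matches of letters within short windows and no measure of binding.

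Across the set, 8 of 10 genes rose with colchicine and 0 fell, by edgeR's quasi-likelihood test with Benjamini-Hochberg adjustment over all tested genes at 0.05. At an unadjusted p under 0.05, a looser threshold, the counts were also 8 and 0. With edgeR 17.4% of all tested genes rose, 17% fell and 34.4% changed in either direction. DESeq2 and limma-voom gave the same 8 and 0 for the members. Of all 13431 tested genes DESeq2 called 2694 raised and 2887 lowered, and limma-voom 2460 raised and 1836 lowered. The same 8 members had CPM ranges that did not overlap between the groups, always with colchicine higher, as did 39.1% of all tested genes, and 21.1% with colchicine higher. The median log2 fold change was 1.28 over the 10 members, against -0.03 over all tested genes. Vehicle libraries spread more than colchicine libraries in every member: the highest library exceeded the lowest by 1.11 to 1.63 times with colchicine and by 1.54 to 5.03 times with vehicle. Vehicle 2 was the lowest library in 7 members, with vehicle 1 the lowest in Mylk and Ppp1r12b and colchicine 1 in Rhoa.

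**Figure D1:**
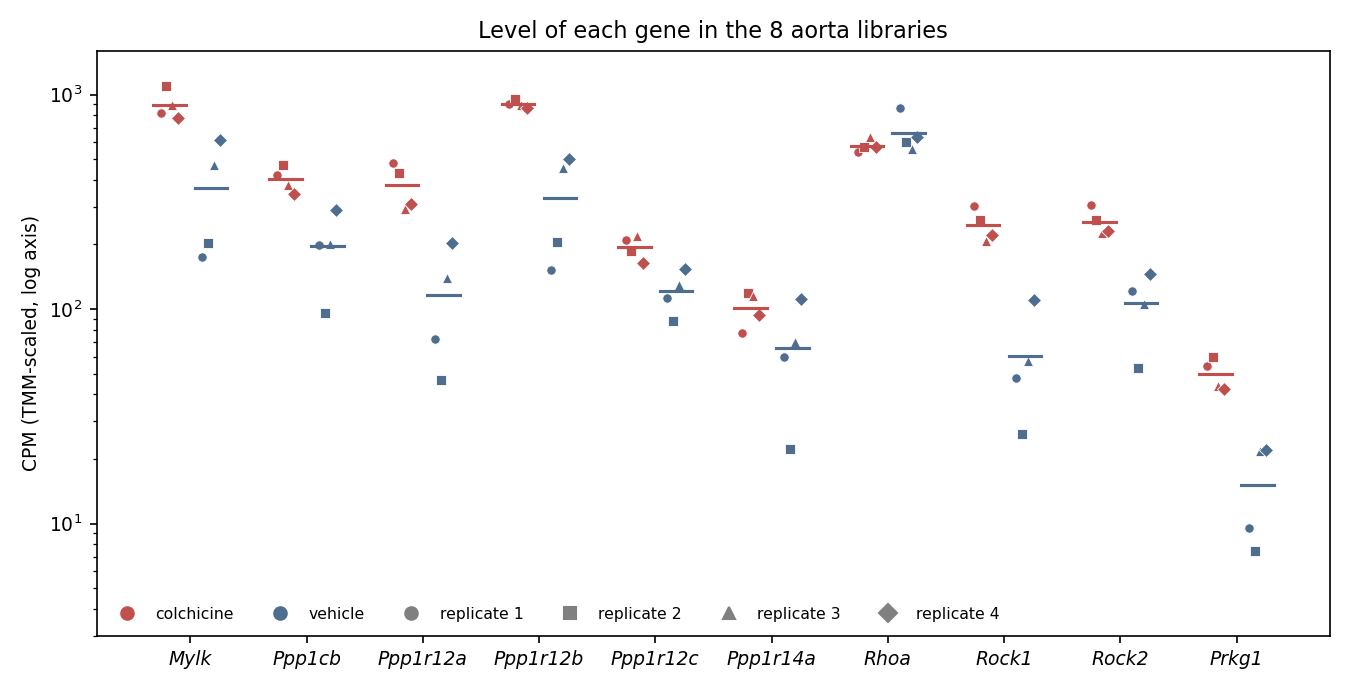
Level of the 10 genes in each library, in TMM-scaled CPM on a log axis. Points are libraries (colchicine left, vehicle right, symbols for replicate numbers) and bars are group means; in 8 genes all 4 colchicine points lie above all 4 vehicle points, while Ppp1r14a and Rhoa overlap.

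Mylk encodes the kinase that starts contraction (ENSMUSG00000022836, GRCm38 chromosome 16, 34745210 to 35002420). It stood at 820.5, 1092, 892 and 781 CPM in colchicine 1 to 4, against 174, 203, 471 and 613 CPM in vehicle 1 to 4. All 4 colchicine libraries lay above the highest vehicle library, and vehicle 1 and 2 lay far below vehicle 3 and 4. Mylk averaged 897 ± 138 CPM with colchicine and 365 ± 212 CPM with vehicle (SD, n = 4 each), and rose by 1.29 ± 0.40 on the log2 scale (SE, edgeR adjusted p = 0.0341), or 2.45-fold. Its call was lost in most fits that left out a library: it passed without vehicle 4, and without any of the other 7 the adjusted p was 0.0507 to 0.109. The change stayed between 0.97 and 1.65 in these fits. They called 16.2% (without colchicine 2) to 37.3% (without vehicle 4) of all tested genes, against 34.4% with all 8 libraries. Corrected for GC content and transcript length, the edgeR change was 0.99 (adjusted p = 0.0663). The gene also gives rise, from a start site within it, to telokin, a short protein that lacks the kinase domain, and gene counts do not separate the products.

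Among the phosphatase genes, the catalytic subunit and all 3 targeting subunits rose. Ppp1cb encodes the catalytic subunit that the myosin phosphatase uses (ENSMUSG00000014956, chromosome 5, 32458843 to 32517433). It had 422, 471, 380.3 and 344 CPM in colchicine 1 to 4, against 199.0, 95.6, 201 and 289.7 CPM in vehicle 1 to 4. The groups were apart, with vehicle 4 nearest to the colchicine libraries. Its rise was 1.04 ± 0.30 on the log2 scale (SE, edgeR adjusted p = 0.0273), and without vehicle 1, vehicle 3 or any colchicine library it did not pass (adjusted p = 0.0532 to 0.0949). With GC content and transcript length corrected for, the edgeR change was 0.58 (adjusted p = 0.0769).

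Ppp1r12a encodes MYPT1, the targeting subunit of smooth muscle that the ROCK kinases phosphorylate (ENSMUSG00000019907, chromosome 10, 108162193 to 108284475). Its levels were 477, 432, 292 and 309 CPM in colchicine 1 to 4 and 72.6, 46.9, 139.7 and 204 CPM in vehicle 1 to 4. No vehicle library reached the lowest colchicine library. The rise was 1.71 ± 0.43 (SE, edgeR adjusted p = 0.0174), and it did not pass without colchicine 1 (adjusted p = 0.0616) or colchicine 2 (0.0597).

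Ppp1r12b encodes MYPT2, the form described mainly in heart and skeletal muscle and also present in smooth muscle (ENSMUSG00000073557, chromosome 1, 134754658 to 134955942). It was the most even of the raised members with colchicine, at 899, 954, 898 and 861 CPM in colchicine 1 to 4, against 152, 205, 457 and 499 CPM in vehicle 1 to 4. Vehicle 1 and 2 were again far under vehicle 3 and 4. The log2 rise was 1.46 ± 0.37 (SE, edgeR adjusted p = 0.0176), with adjusted p = 0.055 without colchicine 1 and 0.06 without colchicine 2. Ppp1r12c, the third targeting subunit (ENSMUSG00000019254, chromosome 7, 4481520 to 4501680), moved least of these subunits. It had 211, 186, 218 and 163 CPM in colchicine 1 to 4 and 112, 88.1, 129 and 155 CPM in vehicle 1 to 4. Colchicine 4 and vehicle 4 were close to each other. Its change was 0.68 ± 0.19 (SE, edgeR adjusted p = 0.0255), and it passed in 2 of the 8 fits that left out a library, those without vehicle 2 or vehicle 4 (adjusted p of 0.0527 to 0.092 in the other 6).

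Ppp1r14a encodes CPI-17, the inhibitor that blocks the phosphatase once protein kinase C or a ROCK kinase has phosphorylated it (ENSMUSG00000037166, chromosome 7, 29289308 to 29293801). It had 77.4, 119, 115 and 93.7 CPM in colchicine 1 to 4, against 59.9, 22.2, 70.3 and 112 CPM in vehicle 1 to 4. Vehicle 4 lay within the colchicine range and vehicle 2 far under it. The change of 0.62 ± 0.40 did not pass (SE, edgeR adjusted p = 0.25), and was 0.33 without vehicle 2 (adjusted p = 0.33), 0.99 without vehicle 4 (adjusted p = 0.0677), 1.13 without vehicle 1 and 4 (adjusted p = 0.0712) and 1.23 after the GC and length correction (adjusted p = 0.0559).

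The GTPase that switches the ROCK kinases on did not pass the test. Rhoa (ENSMUSG00000007815, chromosome 9, 108306129 to 108337934) had 537, 570.3, 635 and 569.9 CPM in colchicine 1 to 4, against 861, 600.5, 558 and 635 CPM in vehicle 1 to 4. The groups overlapped, and vehicle 1 stood above the other 7 libraries. The log2 fold change was -0.20 ± 0.18 (SE, edgeR adjusted p = 0.403), but its sign was turned on unscaled log2(TPM + 1) values (0.23, adjusted p = 0.368), while it was 0.00 without vehicle 1 and 4 (adjusted p = 0.987), -0.19 on median-scaled TPM (adjusted p = 0.383) and -0.55 after the GC and length correction (adjusted p = 0.0587). Its gene shares 32 exon bases with Tcta on the opposite strand, whose counts were 5.67% of those of Rhoa.

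Both ROCK kinases, which restrain the phosphatase, rose. Rock1 (ENSMUSG00000024290, chromosome 18, 10064401 to 10182045) had 302, 260.5, 208 and 220.5 CPM in colchicine 1 to 4 and 47.6, 26.1, 57.2 and 109.8 CPM in vehicle 1 to 4. Even the lowest colchicine library exceeded the highest vehicle library, vehicle 4. It had the largest change of the set, 2.04 ± 0.39 (SE, edgeR adjusted p = 0.00748), or 4.12-fold, above the changes of 99.4% of tested genes. Rock2 (ENSMUSG00000020580, chromosome 12, 16894895 to 16987823) had 304, 259.6, 225 and 231 CPM in colchicine 1 to 4, against 122, 53, 106 and 145 CPM in vehicle 1 to 4. The groups were apart here as well. It rose by 1.26 ± 0.28 (SE, edgeR adjusted p = 0.012), and by 0.69 after the GC and length correction (adjusted p = 0.0346). Both passed in all 8 fits that left out a library.

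Prkg1, the kinase that cGMP activates downstream of nitric oxide (ENSMUSG00000052920, chromosome 19, 30564489 to 31765033), was the least abundant member. Its levels were 54.2, 59.4, 43.8 and 42.2 CPM in colchicine 1 to 4 and 9.54, 7.41, 21.7 and 22.1 CPM in vehicle 1 to 4. The groups were apart, and vehicle 1 and 2 lay under vehicle 3 and 4. Prkg1 rose by 1.72 ± 0.35 (SE, edgeR adjusted p = 0.00922), or 3.28-fold, and passed in all 8 fits that left out a library (highest adjusted p = 0.0387). The intronless gene Cstf2t lies within Prkg1 on the opposite strand, with 0 shared exon bases, and its counts came to 87.4% of those of Prkg1.

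**Figure D2:**
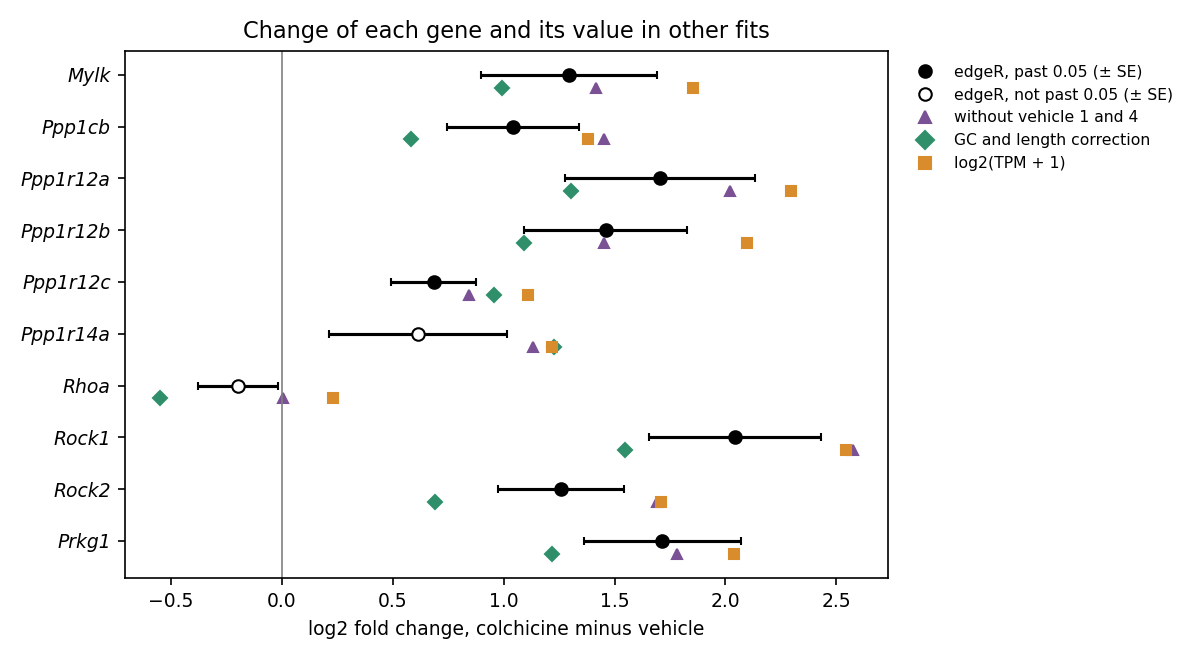
Log2 fold change of each gene, colchicine minus vehicle, from edgeR with its SE (filled, past 0.05; open, not past), and from 3 other fits. Rock1 changed most (2.04), Rhoa (-0.20) is at 0.00 without vehicle 1 and 4 and above 0 on log2(TPM + 1) values, and the GC and length correction lowers the changes of 8 genes and raises those of Ppp1r12c and Ppp1r14a.

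Levels can be compared between genes only per transcript length, as TPM (transcripts per 1000000, in the authors' deposited values). By mean TPM the order with colchicine was Rhoa (600.0 ± 25.8), Ppp1r12b (401 ± 24.7), Mylk (260.3 ± 34.4), Ppp1cb (247 ± 32.8), Ppp1r14a (240.2 ± 37.5), Ppp1r12a (221 ± 57.7), Ppp1r12c (152 ± 16.9), Rock1 (89 ± 17.4), Rock2 (75.5 ± 12.5) and Prkg1 (18.2 ± 3.16; SD, n = 4 for each). With vehicle it was Rhoa (517 ± 90.4), Ppp1r14a (121 ± 77.5), Ppp1r12b (116 ± 75), Ppp1cb (101 ± 44.1), Mylk (89.3 ± 59.4), Ppp1r12c (74.1 ± 28.9), Ppp1r12a (53.7 ± 37.4), Rock2 (23.7 ± 9.99), Rock1 (16.7 ± 10.9) and Prkg1 (4.27 ± 2.92; SD, n = 4 for each). With colchicine the ranges of Mylk, Ppp1cb, Ppp1r14a, Ppp1r12a and Ppp1r12c overlapped from neighbour to neighbour, as did those of Rock1 and Rock2. With vehicle only Rhoa was clear of the next gene, and every other neighbouring pair overlapped. Rhoa was the highest member in all 8 libraries.

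TPM carries no TMM scaling, and this bears on the fold changes. The median log2 ratio of TPM to CPM, over tested genes with a mean TPM of 1 or more, was -0.35 to -0.22 in colchicine libraries, against -1.46, -0.38, -0.27 and -0.64 in vehicle 1 to 4, so the typical tested gene has a low TPM in vehicle 1 and 4. On log2(TPM + 1) values the median change of all genes was 0.35, and the same 8 members passed, with a median over the 10 members of 1.78.

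Differences between genes within a library do not depend on that scaling. For each library the log2 CPM of a gene was subtracted from that of another, and the 70 ways of assigning the 8 libraries to the groups gave a two-sided exact permutation p, at smallest 0.0286, which was adjusted over 16 differences. Rock1 minus Rock2 was -0.01, 0.01, -0.12 and -0.07 in colchicine 1 to 4, against -1.35, -1.02, -0.88 and -0.40 in vehicle 1 to 4. The difference was near 0 in the colchicine libraries and lower in every vehicle library, a shift of 0.87 (higher in 4 of 4 libraries, exact permutation p = 0.0286, adjusted p = 0.0653). In TPM, where levels can be compared, the Rock1 to Rock2 ratio was above 1 in all 4 colchicine libraries and below 1 in all 4 vehicle libraries, at 1.17 ± 0.05 with colchicine and 0.655 ± 0.186 with vehicle (SD, n = 4 each).

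The inhibitor and the targeting subunit were compared in the same way. Ppp1r14a minus Ppp1r12a was -2.62, -1.86, -1.35 and -1.72 in colchicine 1 to 4, against -0.28, -1.07, -0.99 and -0.86 in vehicle 1 to 4. Every colchicine library lay under every vehicle library, with a shift of -1.09 (exact permutation p = 0.0286, adjusted p = 0.0653). These differences carry no correction for GC content and transcript length. With that correction the edgeR changes of this pair lay close together, at 1.23 for Ppp1r14a and 1.30 for Ppp1r12a. Prkg1 minus Rhoa was -3.86 to -3.26 with colchicine and -6.48 to -4.68 with vehicle, a shift of 2.03 (exact permutation p = 0.0286, adjusted p = 0.0653). Of this pair Prkg1 rose (edgeR change of 1.72) while Rhoa did not pass (-0.20), so most of the shift lay in Prkg1. These are RNA levels and no measure of relaxation or contraction. A shift of the kinase against the phosphatase was not detectable: Mylk minus Ppp1r12a averaged 1.27 ± 0.35 with colchicine and 1.68 ± 0.35 with vehicle (SD, n = 4 each), and the exact permutation p was 0.2. Mylk minus Ppp1cb averaged 1.15 ± 0.13 with colchicine and 0.80 ± 0.66 with vehicle (SD, n = 4 each; exact permutation p = 0.429), and Ppp1r12b minus Ppp1r12a 1.29 ± 0.32 with colchicine and 1.55 ± 0.47 with vehicle (exact permutation p = 0.4).

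**Figure D3:**
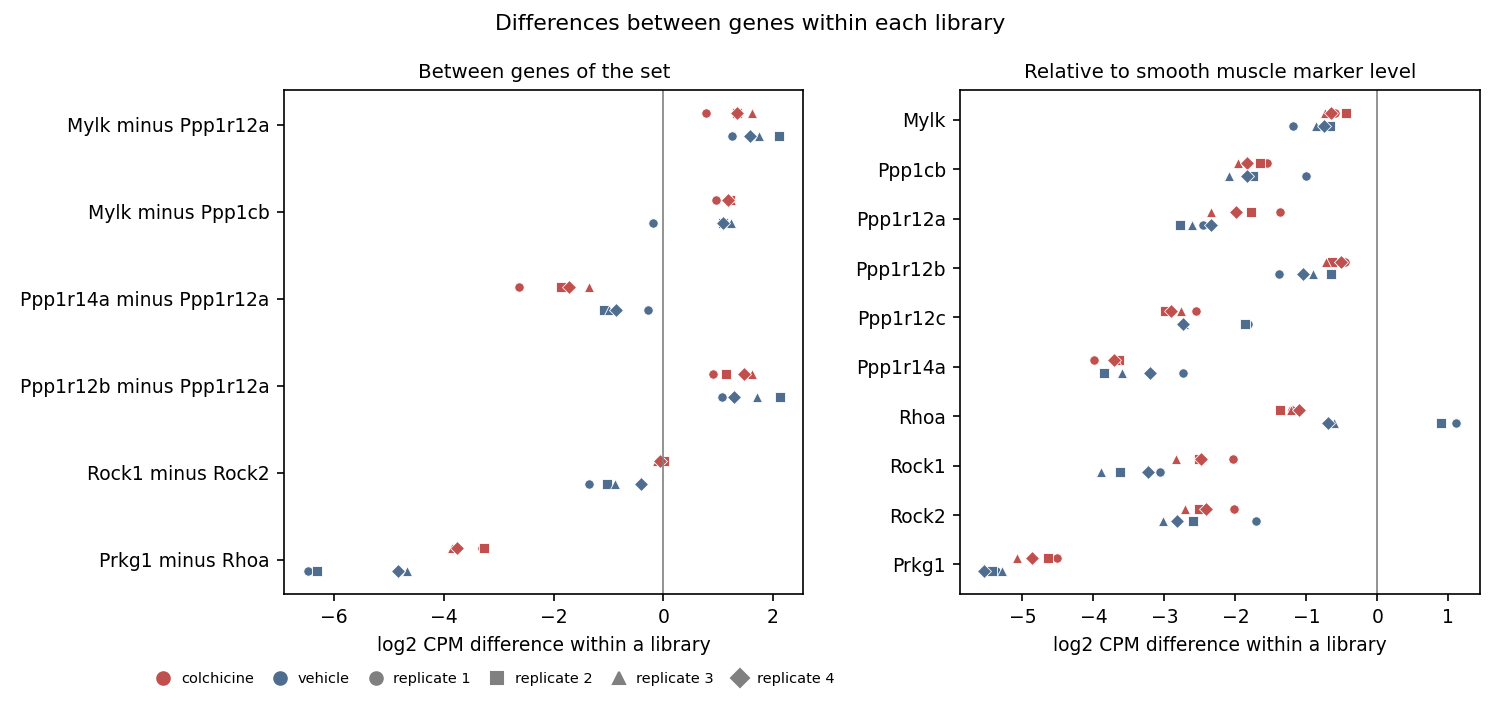
Log2 CPM differences within each library, between genes of the set (left) and between each gene and the mean level of 8 smooth muscle markers (right), with colchicine points above vehicle points in each row. Rock1 minus Rock2 lies between -0.12 and 0.01 in colchicine libraries and between -1.35 and -0.40 in vehicle libraries, and Rhoa relative to the markers separates the groups in the opposite direction to Rock1, Ppp1r12a and Prkg1. The marker level is itself higher in every colchicine library, and Rhoa alone did not pass in edgeR.

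Smooth muscle marker levels moved with the members, and the same subtraction was made against them. The mean log2 CPM of the 8 markers was 10.27, 10.53, 10.53 and 10.26 in colchicine 1 to 4, against 8.64, 8.33, 9.74 and 10.01 in vehicle 1 to 4. Vehicle 1 and 2 were the lowest vehicle libraries, as they were for every member but Rock2 and Rhoa. For Ppp1cb the margin was narrow (199.0 CPM in vehicle 1 and 201 CPM in vehicle 3). Relative to the markers, 3 members were higher in every colchicine library than in any vehicle library: Rock1 by 0.99, Ppp1r12a by 0.68 and Prkg1 by 0.64 (exact permutation p = 0.0286 and adjusted p = 0.0653 for each). On log2(TPM + 1) values the groups overlapped for Prkg1, with a difference of 0.40 (exact permutation p = 0.0857). Rhoa was lower in every colchicine library, by 1.40 (same p-values). The marker mean was itself higher in every colchicine library than in any vehicle library. The edgeR change of Rhoa alone was -0.20 and did not pass, so most of this difference lay in the markers. Mylk and Ppp1r12b were higher by 0.26 and 0.42, with overlap (exact permutation p = 0.0571 and adjusted p = 0.102 for each). Ppp1cb and Rock2 stood at -0.08 and 0.12 (exact permutation p of 0.83 and 0.71), and Ppp1r12c and Ppp1r14a at -0.51 and -0.41 (0.114 and 0.2). Without vehicle 1 and 4 the difference of Ppp1r14a was -0.03 (exact permutation p = 0.867). The differences from the markers carry no correction for GC content and transcript length and were not recomputed with it. With that correction the edgeR changes of the genes themselves were lower: 1.55 against 2.04 for Rock1, 1.30 against 1.71 for Ppp1r12a and 1.22 against 1.72 for Prkg1. Its part in the excess over the markers was not tested. None of the 16 differences passed after adjustment, the lowest adjusted p being 0.0653. The exact permutation p cannot go below 0.0286, which the 7 differences without overlap reached. None could pass after adjustment over 16 unless more of them had reached it.

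Markers of other cells differed between the groups as well, and their part in these values was not tested. Beside the counts that follow, 17.4% of all tested genes rose and 17% fell. Of 8 leukocyte and macrophage markers 7 fell, with summed levels of 387 to 772 CPM in colchicine and 1350 to 3604 CPM in vehicle libraries. All 3 tested of 6 neutrophil markers fell (sums of 2.16 to 4.02 CPM with colchicine and 13 to 2826 CPM with vehicle), as did 4 of 5 platelet markers (26.9 to 33 CPM with colchicine and 51.4 to 774 CPM with vehicle). The size of both falls came largely from vehicle 1 and 4, the libraries with most haemoglobin counts. Neutrophil sums were 2826, 19.6, 13 and 724 CPM in vehicle 1 to 4, and platelet sums 774, 94.8, 51.4 and 715 CPM. Erythroid markers fell in 5 of 6 cases, with overlapping sums (882 to 3098 CPM with colchicine and 389 to 197472 CPM with vehicle). Fibroblast sums overlapped (9311 to 11620 CPM with colchicine and 3728 to 38255 CPM with vehicle, 1 of 7 raised). Among 7 endothelial markers 3 rose and 2 fell (1691 to 2510 CPM with colchicine and 1024 to 1593 CPM with vehicle). Adipocyte markers had sums of 161 to 408 CPM with colchicine and 502 to 1395 CPM with vehicle (1 of 6 fell), striated muscle markers 14.1 to 74.1 CPM with colchicine and 20.9 to 248 CPM with vehicle (7 tested, no call), and Schwann cell markers 11.3 to 18.4 CPM with colchicine and 18.4 to 42.8 CPM with vehicle (1 of 4 fell). No marker was at 0 across a whole group.

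Shares within gene families, in TPM, were chosen after the values were seen and describe RNA proportions. None of 11 shares passed the exact permutation test after adjustment (lowest adjusted p = 0.0524, with a smallest possible unadjusted p of 0.0286). Ppp1cb made up 38.1, 41.8, 34.6 and 33.7% of the 3 catalytic subunit genes in colchicine 1 to 4, against 18.48, 8.15, 19.2 and 27.8% in vehicle 1 to 4, with no overlap. Its relatives Ppp1ca and Ppp1cc, which serve many other phosphatase complexes, fell by 0.56 and 0.47 on the log2 scale (edgeR adjusted p = 0.0277 and 0.0416), but stood at -0.02 and -0.22 after the GC and length correction (adjusted p = 0.898 and 0.23) and did not pass on log2(TPM + 1) values. Among the targeting subunits, Ppp1r12b held 52.1 ± 3.33% with colchicine and 45 ± 7.61% with vehicle, Ppp1r12a 28.2 ± 4.36% with colchicine and 20.9 ± 4.66% with vehicle, and Ppp1r12c 19.7 ± 2.61% with colchicine and 34.1 ± 8.75% with vehicle (SD, n = 4 each). Only the shares of Ppp1r12c did not overlap. The shares carry no GC and length correction. With it the edgeR changes were nearer to each other, at 0.96 for Ppp1r12c, 1.09 for Ppp1r12b and 1.30 for Ppp1r12a (adjusted p of 0.0182, 0.0278 and 0.02).

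The same was done for 3 inhibitor genes of the CPI-17 family. Ppp1r14a held 73.9, 77.2, 74.3 and 73.5% of their summed TPM in colchicine 1 to 4, against 26.6, 20.3, 55.2 and 58.9% in vehicle 1 to 4. Ppp1r14b, which encodes the widely expressed relative PHI-1, held the largest part of the rest and fell by 1.77 ± 0.32 (SE, edgeR adjusted p = 0.00657), at 29.1 CPM with colchicine and 99.4 CPM with vehicle on average. Ppp1r14c, which encodes KEPI, rose by 2.24 ± 0.41 (SE, edgeR adjusted p = 0.00684), at 14.8 CPM with colchicine and 3.12 CPM with vehicle. Rhoa, by contrast, held 38.5 ± 2.4% of the summed TPM of Rhoa, Rhob and Rhoc with colchicine and 39.2 ± 3.8% with vehicle (SD, n = 4 each), with overlapping ranges.

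A further 7 lists cover 73 genes around the switch, of which 71 were tested. The counts per list stand beside 17.4% raised and 17% lowered among all tested genes. Most lists are short, and none was tested as a whole. Among the light chains and calmodulins, 1 of 6 tested genes fell and 5 did not pass (median -0.04). Myl9, the smooth muscle regulatory light chain that Mylk phosphorylates, averaged 3688 CPM with colchicine and 1769 CPM with vehicle, a change of 1.06 ± 0.37 that did not pass (SE, edgeR adjusted p = 0.0543), although it passed with DESeq2, with limma-voom, without vehicle 1 and 4 (adjusted p = 0.0356) and after the GC and length correction (0.0189). Myl12b, a regulatory light chain of non-muscle myosin, fell by 0.63 (edgeR adjusted p = 0.0443), and by 0.23 after the GC and length correction, where it did not pass (adjusted p = 0.308).

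Of 12 other kinases that can act on the light chain, 3 rose and 1 fell (median 0.24). Mylk4, a less studied relative of Mylk, showed the largest change of all 71 tested genes that passed in the upward direction: it averaged 642 CPM with colchicine and 105 CPM with vehicle, a rise of 2.61 ± 0.56 (SE, edgeR adjusted p = 0.0104) that passed in each of the 23 alternative fits. Cdc42bpa, which encodes the Cdc42-activated kinase MRCK alpha, rose by 1.23 ± 0.20 (SE, edgeR adjusted p = 0.00546). Ilk, integrin-linked kinase, rose by 0.54 (edgeR adjusted p = 0.0406) but did not pass in 12 alternative fits. Pak1, a kinase driven by Rac and Cdc42, fell by 1.70 ± 0.37 (SE, edgeR adjusted p = 0.0111) and did not pass on log2(TPM + 1) values (adjusted p = 0.0642).

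The other protein phosphatase 1 genes split, with 2 of 8 raised and 3 lowered (median 0.10), and besides those above they included Ppp1r7 at 0.51 (edgeR adjusted p = 0.043), a regulator whose change had the opposite sign, -0.085, after the GC and length correction. In the list of RhoA-related GTPases and their inhibitors 1 of 8 rose and 2 fell (median -0.25). Rnd3, a GTPase that opposes RhoA, rose by 0.68 (edgeR adjusted p = 0.0312) and lost its call in 13 of the 23 alternative fits, among them those without any 1 colchicine library, without vehicle 1 or 2, and without vehicle 1 and 4 together. Arhgdib, the GTPase dissociation inhibitor best known from blood cells, fell by 1.40 ± 0.22 (SE, edgeR adjusted p = 0.00486), and Arhgdig, outside the naming rule, was the other gene that fell, with 0.18 CPM with colchicine and 2.30 CPM with vehicle. Its colchicine mean is about the level that 3 counts give in a library, 0.158 to 0.22 CPM.

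Of 13 exchange factors, which activate RhoA and related GTPases, 4 rose and 1 fell (median 0.45). Net1 rose by 1.51 ± 0.41 (SE, edgeR adjusted p = 0.0233), a call lost in 6 of the 23 alternative fits, among them those without colchicine 1, 2 or 4 or vehicle 2. Arhgef12, which encodes LARG, the factor that couples G proteins to RhoA in vascular smooth muscle, rose by 1.22 ± 0.24 (SE, edgeR adjusted p = 0.00776), at 312 CPM with colchicine and 134 CPM with vehicle. Arhgef10 rose by 0.86 ± 0.23 and Arhgef1, the exchange factor linked to angiotensin signalling, fell by 0.60 ± 0.14 (SE, edgeR adjusted p = 0.0223 and 0.013). Arhgef1 did not pass on log2(TPM + 1) values, and the fourth factor that rose, Akap13 at 0.45 (edgeR adjusted p = 0.0492), is named after its value was known. Arhgef2 encodes GEF-H1, which microtubules hold inactive and which is released when they come apart, as under colchicine. Its RNA averaged 171 CPM with colchicine and 138 CPM with vehicle, a change of 0.31 ± 0.16 that did not pass (SE, edgeR adjusted p = 0.154), although it passed after the GC and length correction (0.47, adjusted p = 0.0311).

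Of 12 GTPase activating proteins, which switch such GTPases off, 5 rose and 7 did not pass (median 0.42). Arhgap6 rose by 1.42 ± 0.26, Arhgap5 by 1.14 ± 0.24 and Arhgap24 by 0.96 ± 0.19 (SE, edgeR adjusted p of 0.00714, 0.0101 and 0.00868), while Arhgap5 stood at 0.27 after the GC and length correction and did not pass there (adjusted p = 0.0707). The other pair that rose, named with their values known, were Myo9b at 0.63 and Arhgap35 at 0.59. Arhgap42, a smooth muscle activating protein tied to blood pressure, was at -0.12 (edgeR adjusted p = 0.681), with the sign reversed on TPM values (0.45 at a pseudocount of 1). Among 12 tested G proteins and kinases upstream 4 rose and 8 did not pass (median 0.11). They included Pkn2, a RhoA effector kinase, at 1.30 ± 0.21, Prkacb, a catalytic subunit of protein kinase A, at 0.87 ± 0.15, and Gnaq, the G protein that raises calcium, at 0.71 ± 0.17 (SE, edgeR adjusted p of 0.00552, 0.00575 and 0.0134). The fourth, named with its value known, was Prkca, a protein kinase C gene, at 0.45. Among genes named above, calls were also lost in 12 of the 23 alternative fits for Myl12b, 14 for Ppp1r7, 11 for Ppp1ca, 13 for Ppp1cc, 5 for Arhgef1, 4 for Gnaq and 3 for Arhgef10 and Pak1.

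**Figure D4:**
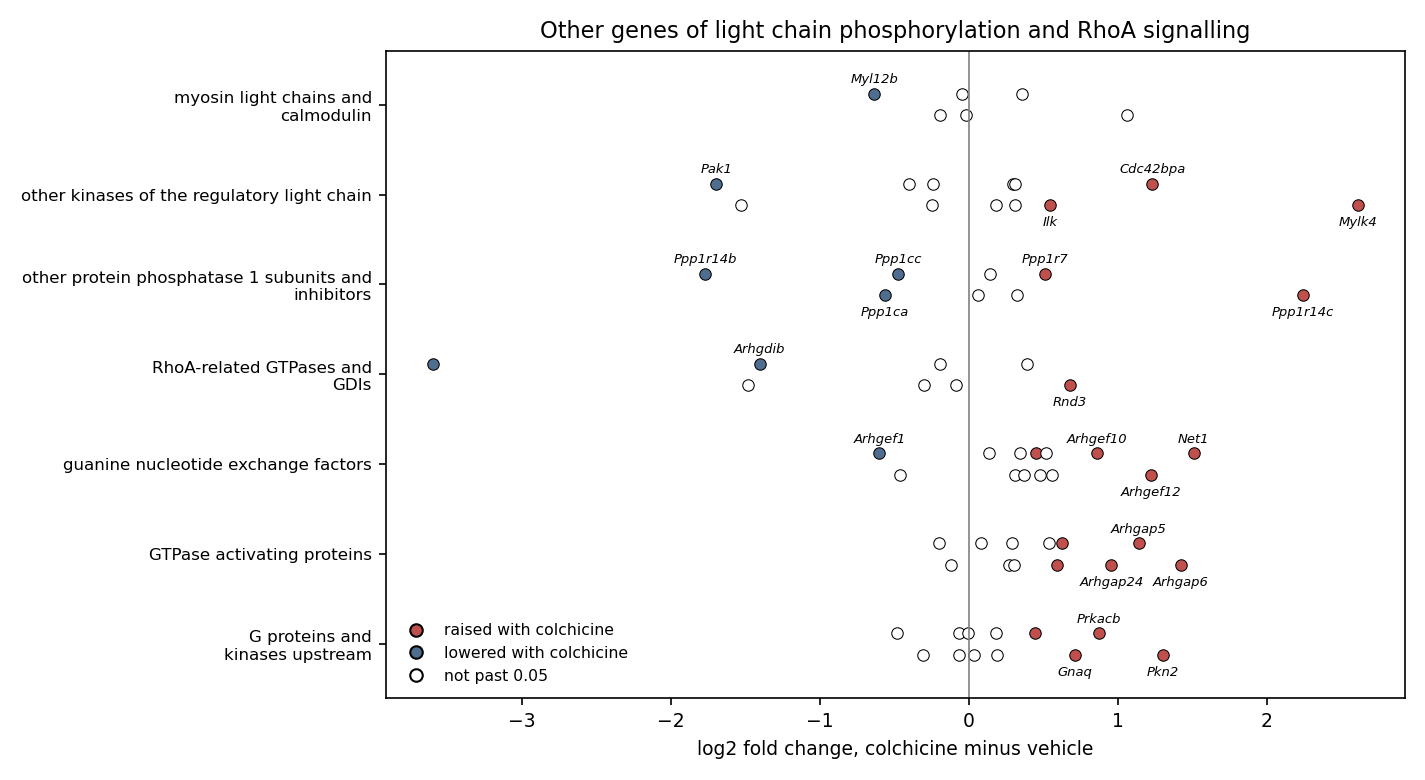
Log2 fold change, colchicine minus vehicle, of 71 tested genes around the switch in 7 lists, each point a gene (red raised, blue lowered, white not past 0.05 in edgeR). Mylk4 (2.61) and Ppp1r14c (2.24) lie furthest to the right and Arhgdig (-3.60) furthest to the left; the filled points among the activating proteins and the upstream genes are all of the raised colour.

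Genes whose pattern over the 8 libraries was most like that of a member were sought among 9588 tested genes whose mean log2 CPM was 3 or more, by the root mean square distance of log2 CPM after subtracting each gene's mean. For Mylk the nearest were Irag1, Itga9 and Mtus2 (distances of 0.11, 0.13 and 0.13 log2 units). For Ppp1r12b they were Hyal1, Itga9 and Fry (0.11, 0.11 and 0.13), and for Prkg1 they were Sema5a, Usp53 and Slc16a7 (0.13, 0.13 and 0.15). Within the set Mylk and Ppp1r12b were each other's nearest member at 0.15, Ppp1cb and Rock2 at 0.17, and Ppp1r12a and Prkg1 at 0.19. Rhoa was furthest from the rest, at 0.54 from its nearest member Ppp1r12c.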

How the data were processed

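Aortic RNA of 8 mouse libraries was measured by RNA-seq. The authors deposited a table of genes with estimated counts, which are not normalized and not always whole (12.3% of non-zero values), and with TPM (transcripts per 1000000 transcripts) per library, per the file headers. The build mm10 is given per the submitters' processing notes; the aligner, counter and strand setting were not given in the sources used here. The vehicle 3 column without a unit in its header was read as TPM, since it adds up to the same total as the other 7. Of 22063 genes, 4498 had no count and 30 rows without a symbol held 5.89e-05% of the counts.

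Counts were rounded and filtered with filterByExpr, and 13431 genes were tested with edgeR 4.0.16 in R 4.3.3 (quasi-likelihood, TMM, Benjamini-Hochberg, threshold 0.05), which was first tested on simulated data. SE is the absolute log2 fold change divided by the square root of F. Log2 CPM used a prior count of 2. Each value's precision is limited by counting error, which the floor of 3 counts covers alone, and by 4 libraries per group. Alternatives used DESeq2 1.42.0, limma 3.58.1 with voom, other scalings and filters, log2(TPM + 1), left-out libraries and, added after the data were seen, median-scaled TPM and a correction for gene GC content and transcript length (GENCODE M21, 99.9% of tested genes).

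Members and lists were chosen with earlier results of these data known. Besides the members, the text names from each list up to 3 genes per direction past the threshold with the largest change at a mean log2 CPM of 1 or more, and always Myl9, Arhgef2, Arhgap42, Myh11, Acta2 and a gene that is not reported here; Myh11 rose by 1.71 (edgeR adjusted p = 0.0331), while Acta2, at 1.03, did not pass (0.0914). Replicate numbers are not stated to pair the libraries.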

Additional observations from a re-analysis of the deposited data

Results flagged for a closer look

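Of 52 groups of 4 libraries checked, 2 held a library that stood apart from the other 3 by Dixon's criterion, which chance alone passes in about 1 group in 20. Both concern the within-library difference of the kinase Mylk and the catalytic subunit Ppp1cb, in log2 CPM. Colchicine 1 stood at 0.96, while colchicine 2 to 4 stood between 1.18 and 1.23. Vehicle 1 stood at -0.19, while vehicle 2 to 4 stood between 1.08 and 1.23. Vehicle 1 was also the library with 14.9% haemoglobin counts and a TMM factor of 0.762, and the part of these in the difference was not tested.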

How the results depend on the processing

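The 23 alternative fits kept the direction of every member but Rhoa, which stood at 0.0033 without vehicle 1 and 4 and at 0.23 in the 3 fits on unscaled TPM. Rock1, Rock2 and Prkg1 passed in all 23. The erythroid covariate and the fit with no TMM factors each kept 7 members raised (Mylk lost), median-scaled TPM 7 (Ppp1cb lost) and the GC and length correction 6 (Mylk and Ppp1cb lost). At a threshold of 0.01, 2 members, 603 genes raised and 801 lowered remained past it. Leaving out 1 library gave 3 to 8 members raised, 898 to 2420 genes raised and 1309 to 2642 lowered: 3 members passed without colchicine 1 or 2, 5 without colchicine 3, colchicine 4, vehicle 1 or vehicle 3, 7 without vehicle 2 and 8 without vehicle 4. A replicate block gave 5 members raised, 1121 genes raised and 1184 lowered. Same-numbered libraries did not deviate together (correlations -0.247 to 0.0319, 0 of 4 pairs best matched). With only 4 pairs this cannot exclude a pairing. On TPM the lowered genes numbered 863, 867 at a pseudocount of 0.1 and 784 with no filter, and 73.1% of calls were raised at a pseudocount of 1, against 50.7% with edgeR and 59.9% after the GC and length correction. Arhgap42 had the opposite sign without vehicle 2 (0.062), on TPM (0.45, 0.56 and 0.45) and on scaled TPM (0.12), and ranged from -0.26 to 0.062 over left-out libraries. Ppp1r7 stood at -0.085 after the GC and length correction. The cause of these changes was not tested. Depth limited no member: the lowest had 130 counts in a library.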
